A study of Mus musculus with 4 samples.

Results

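Open chromatin inside exons and untranslated regions was examined in primary myoblasts from WT mice and from mice lacking Tet2. The regions described are the ATAC-seq peaks whose centre lay in an exon of any transcript of the mm9 annotation (coding sequence, 5′ UTR, 3′ UTR, or an exon of a transcript without a coding sequence) and outside every promoter window, which reached 1000 bp upstream and 100 bp downstream of each annotated start. They numbered 864 of the 25775 peaks listed for WT and 93 of the 3836 peaks listed for Tet2 KO. They are called exonic peaks here, and peaks in introns and between genes together are called distal. Among the listed peaks, which were themselves called on signal, the choice rested on position only.

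Satellite cells of C57BL/6 mice were sorted from hindlimb skeletal muscle as cells negative for propidium iodide, CD45, CD11b, CD31 and Sca1 and positive for CD34 and integrin a7, and were then grown for at least 3 days until they were MyoD+ myoblasts. The WT group and the Tet2 KO group each have 2 samples, and Tet2 KO stands for mice with a constitutive deletion of exon 3 of Tet2, so that every cell type carried the loss from the start of development. Mice were male and 8 to 10 weeks old by the study's default. The deposited files hold 1 peak list per genotype, tied to the genotype by its name only and naming a single library, so no value below has a replicate check and no test between genotypes was possible. Percentages are given with 95% Wilson intervals, which cover counting error only.

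ATAC-seq uses a transposase that cuts and tags DNA where nucleosomes and other proteins leave it free, so that a local pile of fragments, a peak, marks open chromatin. TET2 is a dioxygenase that oxidises 5-methylcytosine to 5-hydroxymethylcytosine and so takes part in the removal of DNA methylation. Exons are mostly read for their codons or for their part in an mRNA, but the same bases can also carry binding sites for transcription factors: MyoD and its relatives bind E-boxes, of which CAGCTG is the one preferred in muscle cells, Fos and Jun dimers bind the AP-1 motif, and Sp and Klf factors bind GC boxes.

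The labelled cell type was checked against the promoters of marker genes. In WT 4 of 8 myoblast markers held a promoter peak (Myod1, Des, Chrna1 and Myog), and in Tet2 KO 3 of 8 did (Myod1, Des and Chrna1). Pax7, Myf5, Itga7 and Cdh15 held none in either list. Of the markers of other cells of muscle, Pecam1 of 5 endothelial genes held a promoter peak in WT, whereas 0 of 6 fibro-adipogenic, 0 of 4 immune and 0 of 3 Schwann cell markers did, and Tet2 KO had none of these. Over all protein-coding genes 30.2% held a promoter peak in WT and 7.92% in Tet2 KO. With so few markers, these counts are a weak check of cell type, above all in Tet2 KO. A promoter peak in a bulk library does not tell few open cells from many weakly open ones.

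The sequences that carry the main result are E-boxes lying in exons. The 3 strongest WT peaks with CAGCTG in coding exons, in 5′ UTRs and in 3′ UTRs are shown with the copy nearest the peak centre, 30 bases read 5′ to 3′ on the strand of the gene in mm9, with the E-box in capitals. Noncoding exon peaks, among them the stronger Gm16601 and Gm14120, are not printed. All 9 of these copies lay wholly inside exon sequence. The first 3 are from coding exons of Rad54l2, an ATP-dependent chromatin remodelling helicase, Klhl6, a BTB-kelch adaptor of a ubiquitin ligase, and Zfr, a zinc finger RNA-binding protein. The next 3 are from 5′ UTRs of Nhlrc4, Pacs2, a sorting protein of endoplasmic reticulum and mitochondria contacts, and Rffl, a ubiquitin ligase. The last 3 are from 3′ UTRs of Tnfrsf8, which encodes CD30, Ccdc97 and March8, a membrane-bound ubiquitin ligase.
Rad54l2 chr9:106595452-106595481 minus strand: ccctcctactacCAGCTGtccaatttgctg
Klhl6 chr16:19947287-19947316 minus strand: ccatgagcgagcCAGCTGtggcatcgcacc
Zfr chr15:12066294-12066323 plus strand: cagttgctgttgCAGCTGctgcaacagctg
Nhlrc4 chr17:26080887-26080916 minus strand: atgtggcggtgaCAGCTGcagggcttgtgg
Pacs2 chr12:114300643-114300672 plus strand: ctcttgggatcaCAGCTGcaactgcaattc
Rffl chr11:82659354-82659383 minus strand: tgtccctgagagCAGCTGctgctggcccct
Tnfrsf8 chr4:144857721-144857750 minus strand: gaaaaactggagCAGCTGagtgccatcaga
Ccdc97 chr7:26496949-26496978 minus strand: tgtccctgccccCAGCTGgccacagggccc
March8 chr6:116358187-116358216 plus strand: tattccttttagCAGCTGctgcggcgagtc

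The second motif is AP-1, a 7-base site read as TGACTCA or TGAGTCA, and the 3 strongest WT peaks holding it in the same 3 classes are shown in the same way. They are from coding exon peaks of Elfn2, a leucine-rich repeat protein of synapses, Npy5r, a neuropeptide Y receptor, and Slco2a1, a prostaglandin transporter, from 5′ UTR peaks of Pnp, a purine nucleoside phosphorylase, Rffl and Pppde1, and from 3′ UTR peaks of Fam168a, Ccdc97 and Myo5a, a myosin motor for organelle transport. The Slco2a1 motif lay in the intron beside the exon, and the other 8 lay in exon sequence. Rffl and Ccdc97 peaks held both motifs within the 200 bp around the peak centre.
Elfn2 chr15:78504114-78504143 minus strand: tcgcctgcagtgTGAGTCAccgagggagtt
Npy5r chr8:69205362-69205391 minus strand: gtatttgtgtgtTGAGTCAtggccctctga
Slco2a1 chr9:102975391-102975420 plus strand: tgtggaTGAGTCAgggtgacggcaaggctc
Pnp chr14:51564183-51564212 plus strand: cagtcttgaccTGACTCAgacagtgtcgcc
Rffl chr11:82659449-82659478 minus strand: gttttgctggcgTGAGTCAgcactgccctg
Pppde1 chr1:180148597-180148626 plus strand: gtaaacctctgTGAGTCAtagagtgactac
Fam168a chr7:107988729-107988758 plus strand: atcagtcatcatcccatgtgTGACTCAtgt
Ccdc97 chr7:26496996-26497025 minus strand: tatcatgggtctTGAGTCAtcacacacaga
Myo5a chr9:75069860-75069889 plus strand: tctgccattggTGAGTCAgagtaagcttgg

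Exonic peaks made up 3.35% (3.14% to 3.58%) of the WT list and 2.42% (1.98% to 2.96%) of the Tet2 KO list. In WT 290 lay in coding exons, 272 in 3′ UTRs, 186 in noncoding exons and 116 in 5′ UTRs. In Tet2 KO the counts were 25, 28, 20 and 20 in the same order. The WT list thus held 9.29 times as many exonic peaks as the Tet2 KO list, against 8.60 times for distal and 4.23 times for promoter peaks, and the ratio was highest for coding exons at 11.6 and lowest for 5′ UTRs at 5.80. When the WT list was shortened to its 3836 peaks of highest fold enrichment, 105 of them were exonic and the ratio was 1.13.

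**Figure D1:**
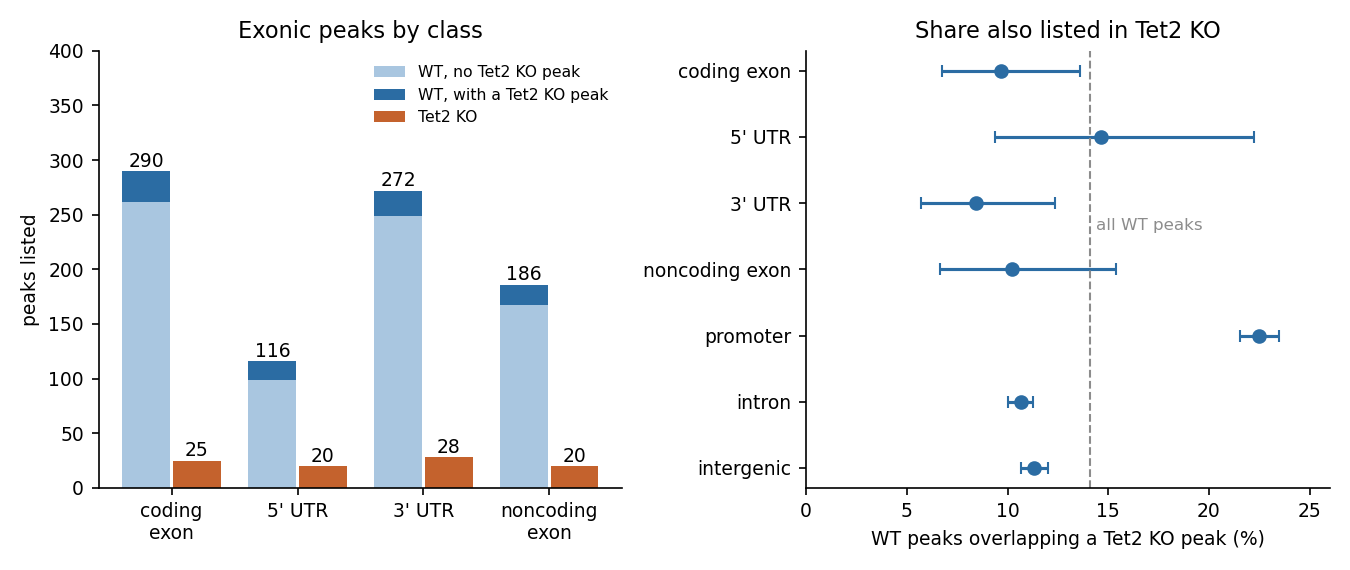
Left, number of exonic peaks listed by class in WT (blue, dark part with a Tet2 KO peak) and Tet2 KO (orange). Right, the fraction, by class, of WT peaks with an overlapping Tet2 KO peak, points with 95% Wilson intervals, and the share over all WT peaks as a dashed line; exonic classes sit between 8.46% and 14.7%, below promoters at 22.5%.

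Exon sequence was not equally open in its parts. Coding exons outside the promoter windows span 32.2 Mb and held 9.02 WT peaks per Mb, close to the 9.94 per Mb of introns and above the 5.75 per Mb between genes. The density was 10.7 per Mb in 3′ UTRs and 12.2 per Mb in noncoding exons. In 5′ UTRs, which span 2.05 Mb, it was 56.7 per Mb, and only the promoter windows were denser at 112 per Mb. The order of 5′ UTR, noncoding exon, 3′ UTR and coding exon was the same in Tet2 KO, at 9.78, 1.31, 1.10 and 0.777 per Mb, with introns at 1.12. This order was not kept in Tet2 KO at a −log10 q of at least 10, where 3′ UTRs had 0.157, coding exons 0.155 and noncoding exons 0.131 per Mb, from 12 exonic peaks in all.

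**Figure D2:**
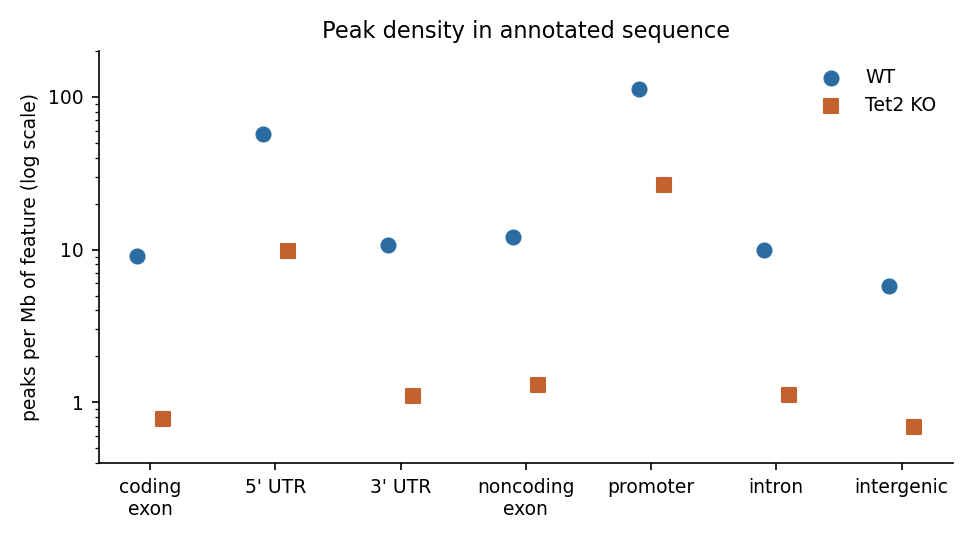
Peaks per Mb of each kind of sequence on a log axis for WT (blue circles) and Tet2 KO (orange squares). The 5′ UTR stands at 56.7 per Mb in WT against 9.02 for coding exons, and every Tet2 KO value lies below its WT value.

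The classes differed in place within the gene, for the UTRs largely by definition. Positions over all exons of each class were not set beside those of the peaks. Of the coding exon peaks in WT 176 lay in an internal exon, 74 in the last, 29 in the first and 11 in a gene of 1 exon, and the median distance from the nearest start of the gene was 8268 bp. Their exons were longer than usual, with a median of 293.5 bp against 140 bp over all exons with coding sequence, while the median over coding bases, which counts long exons by their length, was 255 bp. The 3′ UTR peaks lay in the last exon in 253 of 272 cases, at a median of 779.5 bp from the end of the transcript. The 5′ UTR peaks lay in the first exon in 84 of 116 cases, with a median of 266.5 bp from the nearest start and 88 within 500 bp of it. A noncoding exon peak lay in a transcript of a protein-coding gene in 85 cases, in a lincRNA in 45 and in another processed transcript in 44.

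The rule's edge ran through the 5′ ends of genes. Of 2742 WT peaks with a centre in an exon, 1878 fell inside a promoter window, and 153 of the 864 members lay within 200 bp of one. The nearest WT members were 1 bp outside, in Gm11958 with a fold enrichment of 4.41 and Fancc, a Fanconi anaemia DNA repair gene, with 6.97, and the nearest peak inside was 1 bp within, in Spata13 with 7.37. In Tet2 KO the nearest member was 10 bp outside, in Bard1, the partner of BRCA1, at 4.85, and peaks of Gm10807 and Ston2 lay 4 bp inside at 6.89 and 4.20. A wider promoter window of 3000 bp on either side left 475 WT and 43 Tet2 KO exonic peaks.

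Base composition also differed between the classes. The median GC content of the 200 bp around the centre was 63.0% in 5′ UTR, 58.0% in coding exon and 52.8% in 3′ UTR and in noncoding exon peaks, against 53.0%, 50%, 46.5% and 46.5% at the middle of all exons of those classes. Windows with at least 50% GC and an observed to expected CpG ratio of 0.6 or more, the composition of a CpG island, made up 55.2% (46.1% to 63.9%) of 5′ UTR, 22.8% (18.3% to 27.9%) of coding exon and 3.31% (1.75% to 6.17%) of 3′ UTR peaks. Over all exons of these classes the shares were 29.96%, 6.64% and 1.39%. Promoter peaks stood at 70.8% and distal peaks at 3.79%.

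The E-box CAGCTG was the commonest of the 9 motifs searched in exonic peaks. It was present in the 200 bp around the centre of 408 of 864 WT peaks, 47.2% (43.9% to 50.6%), of which 128 held more than 1 copy. The share was 58.3% (52.5% to 63.8%) in coding exons, 46.3% (40.5% to 52.3%) in 3′ UTRs, 44.6% in noncoding exons and 25.9% (18.8% to 34.5%) in 5′ UTRs. At the middle of all annotated exons it was 15.1% of coding exons, 11.3% of 3′ UTRs and 12.6% of 5′ UTRs. Weighting all exons to the class and the GC content of the WT exonic peaks, in steps of 5 percentage points, raised the figure to 20.2% for coding exons and to 17.1% over the 4 classes. Distal WT peaks held it in 40.0% (39.3% to 40.8%) and promoter peaks in 15.5%.

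AP-1 gave another order of classes. It was found in 33.8% (28.5% to 39.6%) of 3′ UTR peaks, 26.3% of noncoding exon peaks, 19.7% (15.5% to 24.6%) of coding exon peaks and 12.1% (7.33% to 19.2%) of 5′ UTR peaks, against 3.04%, 3.14%, 2.67% and 2.68% of all exons of those classes. Distal peaks held it in 39.0%, so coding exon peaks lay above distal peaks for the E-box and below them for AP-1. These raw shares take no account of the surrounding sequence, which differed in the same direction. At 400 to 500 bp from WT summits the E-box occurred 7.64 times per 100 bp and 100 exonic peaks, against 5.81 for distal peaks. For AP-1 the values there were 1.56 and 2.08. Both motifs were present in 72 exonic peaks, and 316 held neither.

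**Figure D3:**
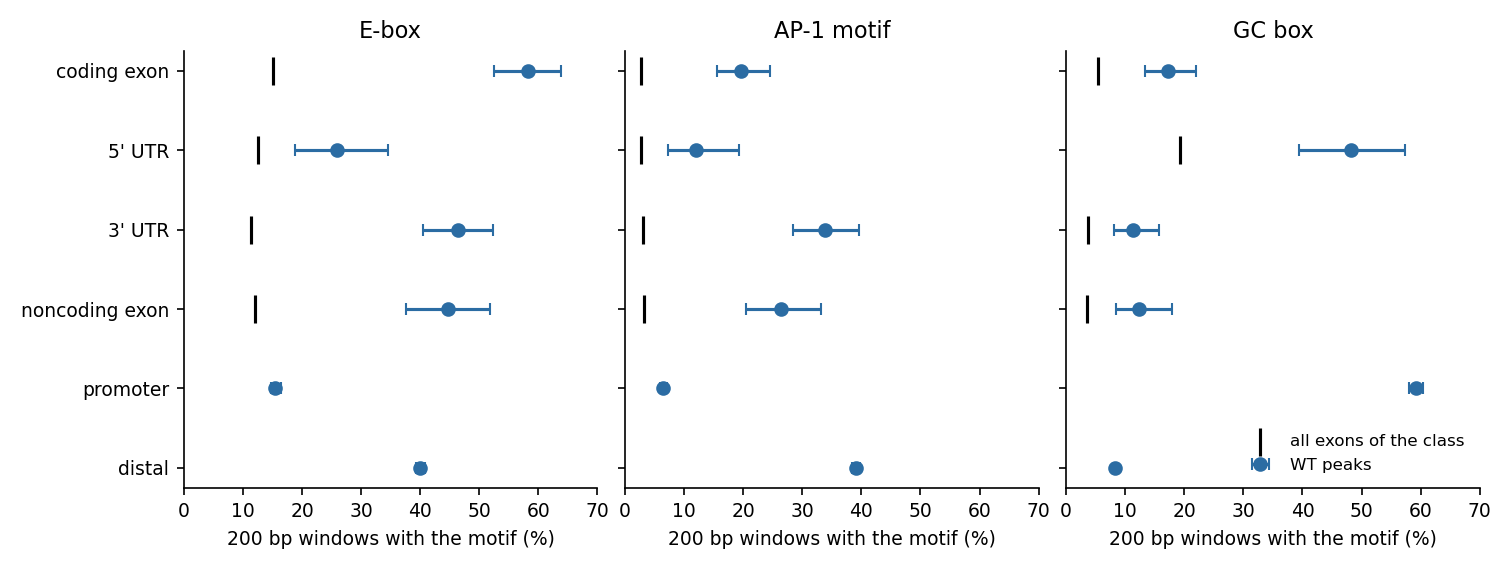
Share of 200 bp windows holding the E-box CAGCTG, the AP-1 motif and the GC box CCGCCC in WT peaks by class (blue points, 95% Wilson intervals) and at the middle of all exons of the class (black ticks). Coding exon peaks reach 58.3% for the E-box, 3′ UTR peaks 33.8% for AP-1 and 5′ UTR peaks 48.3% for the GC box.

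The GC box CCGCCC, read on both strands, was present in 48.3% (39.4% to 57.3%) of 5′ UTR peaks, 17.2% of coding exon and 11.4% of 3′ UTR peaks. All exons weighted to the class and GC content of the peaks gave 29.4%, 13.1% and 6.12% in the same order. The coding exon interval, 13.3% to 22.0%, thus began next to its weighted value. Promoter peaks held the GC box in 59.2%. The RUNX core TGTGGT was found in 23.4% of exonic and 31.3% of distal peaks, and the TEAD site GGAATG in 17.5% and 20.5%. All exons held them in 14.1% and 10.5%, and in 13.6% and 9.77% when weighted to class and GC content. The E-box CAGGTG, which the exon side and the intron side of a splice donor can spell together, was at 14.2% (12.1% to 16.7%) of exonic peaks below the 19.9% of all exons. CACGTG was found in 3.704% and the MEF2 site in 2.199% of exonic peaks, against 2.98% and 1.87% of all exons. The CTCF motif was found in 13 exonic peaks, 1.505% (0.881% to 2.56%), against 0.168% of all exons and 0.267% when these were weighted in the same way. The strongest coding exon peak with it lay in Slc8a3, a sodium and calcium exchanger. The strongest 5′ UTR peak lay in H2-DMa, an antigen-loading chaperone, and the strongest 3′ UTR peak in Slc4a3, an anion exchanger. They are shown on the strand of the gene with the motif in capitals.
Slc8a3 chr12:82300712-82300741 minus strand: tccgtggccGCCATCTACTGGgccatgcag
H2-DMa chr17:34272355-34272384 plus strand: cccgaccttCCACCAGGGGGCggaggtctc
Slc4a3 chr1:75556242-75556271 plus strand: ccgtgtgtaGCCCTCTGGTGGtggtttttg

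The motifs lay at the summits, where the fragments piled highest, and mostly in the exons themselves. Around WT exonic summits the E-box occurred 39.5 times per 100 peaks within 50 bp and 7.64 times per 100 bp and 100 peaks at 400 to 500 bp. AP-1 occurred 19.8 times within 50 bp and 1.56 times at 400 to 500 bp. For distal summits the E-box values were 31.7 and 5.81. Of the exonic peaks with the E-box 93.4% (90.5% to 95.4%) held a copy made wholly of exon bases, and in coding exon peaks 88.2% (82.4% to 92.2%) did. For AP-1 in coding exon peaks it was 64.9% (51.9% to 76.0%), so in 20 of 57 such peaks the motif lay in flanking sequence only. Peaks were chosen by a centre in an exon, and 70.4% of WT exonic peaks lay wholly in exon sequence. The shares in exon bases therefore follow largely from that choice and do not measure a preference of the motifs for exons.

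**Figure D4:**
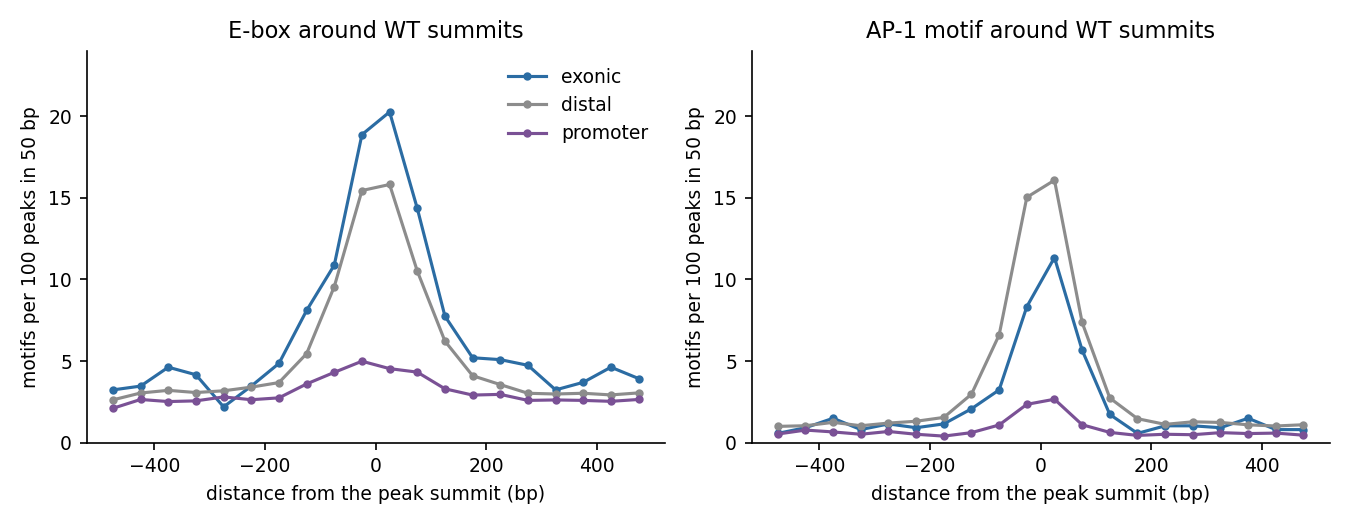
Motif copies per 100 WT peaks in bins of 50 bp against the distance from the summit, for exonic (blue), distal (grey) and promoter peaks (purple). Both motifs are most frequent next to the summit, with exonic peaks above distal peaks for the E-box and below them for AP-1.

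In coding sequence the E-box is also a pair of codons or part of 3. Over all coding exon sequence outside promoters 52.7% of 30581 copies began at the first base of a codon, where CAG CTG reads glutamine and leucine, 30.1% began at the second base, around an alanine codon, and 17.2% at the third, around a serine codon. In WT coding exon peaks 111 of 206 copies, 53.9% (47.1% to 60.6%), began at the first base, 58 at the second and 37 at the third. The reading frame of the E-boxes in open coding exons differed from that of all coding exons by less than the counting error.

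Most WT exonic peaks had no counterpart in Tet2 KO. Of 864, 87 overlapped a Tet2 KO peak by at least 1 bp, 10.1% (8.24% to 12.3%), against 14.1% of all WT peaks, 11.0% (10.5% to 11.4%) of distal peaks and 22.5% (21.5% to 23.5%) of promoter peaks. By class the share was 14.7% (9.36% to 22.2%) in 5′ UTRs, 10.2% (6.64% to 15.4%) in noncoding exons, 9.66% (6.76% to 13.6%) in coding exons and 8.46% (5.70% to 12.4%) in 3′ UTRs. These 4 intervals overlap one another, and each holds the value of distal peaks. In the other direction 85 of 93 Tet2 KO exonic peaks overlapped a WT peak, 91.4% (83.9% to 95.6%), against 96.8% of all Tet2 KO peaks.

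The share with a Tet2 KO peak rose with the strength of the WT peak. With the whole WT list cut into 5 equal groups by fold enrichment it was 2.28% of exonic peaks in the lowest, 4.98%, 5.95% and 14.0% in those that follow, and 32.5% (24.98% to 41.1%) in the highest. Distal peaks gave 1.44% to 34.5% and promoter peaks 2.51% to 57.9% over the same range. Exonic peaks were weaker, with a median fold of 7.37 against 7.88 in distal and 8.10 in promoter peaks, and 219 of them lay in the lowest group against 126 in the highest. Weighted to the folds of exonic peaks, the share was 9.22% for distal and 17.2% for promoter peaks.

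**Figure D5:**
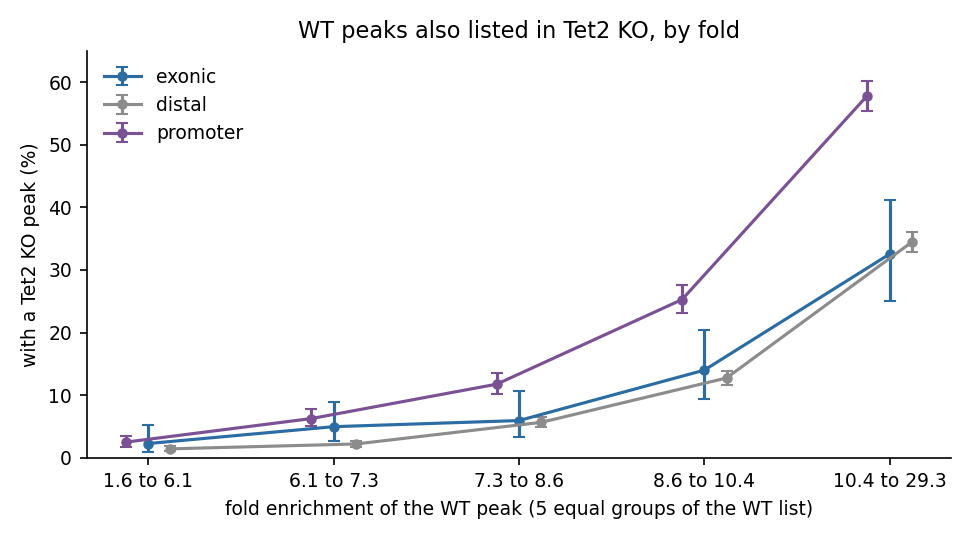
Share of WT peaks overlapping a Tet2 KO peak in 5 equal groups of the WT list by fold enrichment, for exonic (blue), distal (grey) and promoter peaks (purple), with 95% Wilson intervals. Exonic peaks rise from 2.28% to 32.5% and follow distal peaks, while promoter peaks reach 57.9%.

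The background of the lists differed and moved with the genotype. The background over the whole genome, in fragments per site, was taken as the commonest local background solved from the peaks of a list. It stood at 0.649 for WT and at 1.38 for Tet2 KO, 2.13 times as high. The smallest pile at an exonic summit held 7 fragments for WT and 10 for Tet2 KO, and the median was 15 in both. The WT exonic peaks with a Tet2 KO peak had a median of 29 fragments and a fold of 10.3, and those without had 14 fragments and a fold of 7.22. The overlapping Tet2 KO peaks had a median of 15 fragments and a fold of 5.58, with fewer fragments in 77 of 87 pairs and a lower fold in 82. Fragment numbers were not scaled between the lists, and the same counts over all overlapping peaks are not given here. Over all peaks the median fold was 7.89 in WT and 5.59 in Tet2 KO. The part of sequencing depth, library quality, background and genotype in these differences cannot be told apart with 1 list each.

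Position and motif moved the share less than strength. It was 16.4% (11.7% to 22.4%) for the 183 exonic peaks within 500 bp of the nearest start of their gene, 16.7% (9.57% to 27.4%) from 500 to 1000 bp, 6.87% (4.49% to 10.4%) from 1000 to 10000 bp and 8.02% (5.53% to 11.5%) beyond. With the E-box CAGCTG it was 8.58% (6.23% to 11.7%) and without it 11.4% (8.80% to 14.6%). With AP-1 it was 8.96% (5.81% to 13.6%) and without it 10.4% (8.31% to 13.0%). CpG-island-like exonic peaks gave 13.4% (8.92% to 19.6%) and the others 9.34% (7.41% to 11.7%).

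In Tet2 KO itself the E-box was found in 37 of 93 exonic peaks, 39.8% (30.4% to 49.9%), AP-1 in 21.5% (14.4% to 30.9%) and the GC box in 25.8% (18% to 35.5%). Each interval holds the WT value, which was 47.2%, 24.5% and 18.5%. Of the 87 WT peaks with a counterpart, 79 paired with a Tet2 KO peak of the same class and 7 coding exon peaks with one whose centre lay in an intron.

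The strongest exonic peak of both lists was in the 3′ UTR of Lars2, the mitochondrial leucyl-tRNA synthetase, at chr9:123370957-123371298. It had a fold enrichment of 20.7 from 54 fragments in WT and 22.2 from 83 fragments in Tet2 KO, so that the Tet2 KO fold was not the lower one. Of its 31-base words 60.3% occurred more than once in the genome. The next in WT were Gm16601, a lincRNA, with 18.8, and exon 9 of Jmjd1c, a histone demethylase family member, with 16.1 in WT and 7.55 in Tet2 KO. They were followed by the noncoding 4930511F01Rik with 15.5 and 4.61, Gm6420 with 15.3 and 6.20, and Gm14120 with 15.05 in WT alone. The 3′ UTR peak of Tnfrsf8 had 15.02 and 4.73, exon 14 of Zswim5 14.9 and 7.78, the 3′ UTR of Fam168a 14.8 and 5.87, and 2310001H17Rik, a lincRNA, 14.7 in WT alone. Thus 7 of the 10 strongest WT exonic peaks were also listed in Tet2 KO. This share rises with fold in all peaks, and was 41.9% of all WT peaks in the highest of the 5 fold groups.

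Among the 10 strongest of Tet2 KO, 8 had a lower fold than their WT peak. After Lars2 came the 5′ UTR of Dux, a double homeobox gene of tandem arrays, with 9.09 in Tet2 KO and 6.49 in WT. Its local background was 2.3 fragments in Tet2 KO and 0.85 in WT, so here too the order of the folds depended on the pseudocount. Gtpbp2, a GTPase, had 8.08 against 13.5 in its 3′ UTR, exon 3 of Zfr 7.97 against 13.5, and the 3′ UTR of Pik3r3, a regulatory subunit of PI3-kinase, 7.82 against 14.7. Gm10800 had 7.81 against 8.80 and Gm10717 7.76 against 10.1. The 3′ UTR of Cyp8b1, the sterol 12-alpha-hydroxylase of bile acid synthesis, had 7.66 against 12.8. Repeated words made up 75.4% of the Dux, 62.0% of the Gm10800 and 54.8% of the Gm10717 peak, and none of the others named here apart from Lars2.

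The 8 Tet2 KO exonic peaks without a WT peak came from few genes. Slc30a4, a zinc transporter, held 4 of them within its 3′ UTR between chr2:122507234 and 122508087, with folds of 4.81 to 5.50 from 13 to 15 fragments. The other 4 were in Pisd-ps1 with 3.13, 2610005L07Rik with 2.94, Gm10801 with 2.68 and the last exon of Sfi1, a centrosomal protein gene, with 2.33. In those 4 the local background was 8.19 to 22.9 fragments against 1.38 for the genome. Repeated words made up a mean of 28.1% of these 8 peaks and 3.85% of the 85 with a WT peak. Without the peaks in which over 50% of the words were repeated, 82 of 849 WT exonic peaks, 9.66%, overlapped a Tet2 KO peak.

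The WT exonic peaks fell in 803 genes, of which 747 held 1. Syne1, which encodes the nuclear envelope protein nesprin-1, held 6, all in coding exons, at chr10:5235314-5235700 with a fold of 13.1, chr10:5289895-5290335 with 12.5, and in exons 46, 88, 54 and 90 of 144 with 9.20, 7.14, 6.88 and 5.34. The first 5 of these held CAGCTG. Tet2 KO had a peak at the first place with 5.03 and at the second with 4.87, and none at the other 4. Iqsec3, an exchange factor for ARF GTPases, held 3 WT peaks of up to 9.09 and no Tet2 KO peak. Of genes with 2, the strongest were Cst6, a cystatin, with 13.3 and 5.83, Smcr8, a partner of C9orf72, with 12.5 and 6.93, and Btbd11 with 12.4 and 4.49. In Cst6 and Smcr8 the stronger peak had a Tet2 KO counterpart, and in Btbd11 both WT peaks overlapped the same one.

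Genes of 14 fixed lists were looked up next. Over all protein-coding genes 3.16% held a WT exonic peak, and these genes had 9.78 WT exonic peaks per Mb of exon. Among 66 sarcomere genes 3 did: Myom2, an M-band protein, Pdlim3, a Z-disc protein, and Myl4, the embryonic and atrial light chain. The Myom2 peak in a noncoding exon at chr8:15072852-15073247 had a fold of 14.2 from 39 fragments in WT and 6.11 from 16 in Tet2 KO. Pdlim3 had 7.28 and Myl4 5.08 in WT, with no Tet2 KO peak. All 3 held CAGCTG, and the list had 6.15 peaks per Mb of exon. Myom2 was also the single gene with an exonic peak among the 15 muscle differentiation genes that the study picked from its own data, which is not independent evidence.

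Of 48 myogenic regulators 2 had an exonic peak. The 3′ UTR of Bhlhe40, a bHLH repressor, had a fold of 8.15 in WT and 4.63 in Tet2 KO, and a noncoding exon of Tead1, a TEA domain factor, had 5.03 in WT only. Of 47 fusion and adhesion genes 5 did, at 16.2 per Mb of exon. Ehd2, an ATPase of caveolae, had 7.30 and 5.09 in its 3′ UTR, whereas Myof (myoferlin), Stab2, Itga5 (integrin alpha 5) and Cdh15 (M-cadherin) had 7.12, 6.15, 6.03 and 5.49 in WT only. The Cdh15 peak was in its 5′ UTR, 345 bp from the start, while its promoter window held no peak in either list.

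Matrix and cytoskeleton genes held 18.9 and 24.2 WT exonic peaks per Mb of exon. In the list of 93 extracellular matrix genes 11 held 12 WT peaks, 10 of them in coding exons, with a median fold of 7.39 against 7.37 over all exonic peaks, and 0 overlapped a Tet2 KO peak. The strongest were the 3′ UTR of Col13a1, a transmembrane collagen, with 12.1, and coding exons of Ltbp2, a latent TGF-beta binding protein, with 8.25, Col7a1, the collagen of anchoring fibrils, with 7.88, and Lamb1, the laminin beta 1 chain, with 7.76. In the list of actin cytoskeleton and SRF genes 7 of 58 held 9 WT peaks, led by the 3′ UTR shared by Vcl (vinculin) and Ap3m1 with 11.2, that of Mkl2, an SRF coactivator, with 9.38, a coding exon of Macf1 with 7.83 and Myh9, nonmuscle myosin, with 7.39, and 0 overlapped a Tet2 KO peak. With these small counts, 0 of 12 and 0 of 9 are set beside the 10.1% of all exonic peaks without a reading.

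Of 88 Notch, Wnt and TGF-beta genes 7 held 8 WT peaks, each with CAGCTG, against 47.2% of all WT exonic peaks, led by the Wnt coreceptor Lrp5 with 11.5, the receptor Acvr1 with 8.57, Lrp6 with 7.88 and Tcf7 with 6.996. Of these 8, 0 overlapped a Tet2 KO peak, against 10.1% of all WT exonic peaks. The list had 18.4 peaks per Mb of exon. Of 54 growth factor receptors 5 held a WT exonic peak: a coding exon of Mertk, an efferocytosis receptor, with 10.9, Plxna2 with 10.7, Ephb2 with 8.0, the insulin receptor Insr with 7.02 and Robo1 with 6.01. Together they gave 12.2 per Mb. The Mertk peak overlapped a Tet2 KO peak of 7.25 whose centre lay in the intron.

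Of 87 chromatin and DNA methylation enzymes Kdm6b, an H3K27 demethylase, with 8.72, Chd7, a remodeller, with 5.31 and Brd2, an acetyl-lysine reader, with 3.93 held 1 WT peak each, 4.63 per Mb of exon over the list. Klf4 with 5.44 was the single gene of 43 in the list of AP-1 and immediate early genes. Of 101 homeobox and developmental regulators Hoxa10 with 6.02 and Sox12 with 4.95 held a peak. Of 70 replication-dependent histone genes Hist2h4 held 2 with 7.26 and 4.72, Hist2h3c2 6.31, Hist2h2bb 6.21 and Hist1h1c 5.20, and the placing of reads among these near-identical genes is uncertain. These short genes had 86.1 peaks per Mb of exon, against 9.78 over all protein-coding genes. Of the peaks in these lists 0 overlapped a Tet2 KO peak, against 10.1% of all WT exonic peaks. An exonic peak was listed in 0 of 57 cell cycle genes and 0 of 25 clustered protocadherins, against 3.16% of all protein-coding genes.

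Genes with an exonic peak also tended to have an open promoter where the peak lay in a 3′ UTR or a noncoding exon. A gene counted as open if the promoter window of any of its transcripts held a peak. The number of transcripts per gene was not matched in these comparisons. Among protein-coding genes with a 3′ UTR peak in WT 45.3% (39.3% to 51.4%) had a WT promoter peak, against 30.2% of all 22380 protein-coding genes. The share was 34.1% (28.7% to 39.9%) for genes with a coding exon peak and 28.9% (21.4% to 37.9%) for genes with a 5′ UTR peak, both intervals holding the value of all genes, and 51.9% (41.1% to 62.4%) for the 81 genes with a noncoding exon peak. In the same order, Tet2 KO promoter peaks were found at 11.7% (8.33% to 16.2%), 7.69% (5.09% to 11.5%), 7.89% (4.21% to 14.3%) and 20.99% (13.5% to 31.1%) of these genes, against 7.92% of all. The median distance from an exonic peak to the nearest other WT peak was 11190 bp, against 13573 bp over all WT peaks, and 15.6% of exonic, 11.5% of distal and 12.8% of all WT peaks had one within 1000 bp.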

How the data were processed

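ATAC-seq was made by the authors from 5000 myoblasts per library, sequenced as 150 bp read pairs on an Illumina instrument, trimmed to 36 bp and aligned to mm9 with Bowtie2 (-X 2000). Reads of mapping quality 30 or more were kept, duplicates were removed with Picard, and peaks were called with MACS2 at a q of 0.01 and given a score, a fold enrichment ratio, a −log10 p, a −log10 q and a summit, as deposited. Tool versions are not given in the sources used here. The lists hold 25775 and 3836 of 35482 and 8239 numbered peaks, and 55 Tet2 KO peaks have a −log10 q under 2. Read totals are unknown.

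Peaks were placed by centre on GENCODE M1 transcripts, in the order promoter, coding exon, 5′ UTR, 3′ UTR, noncoding exon, intron, intergenic. Territories are known bases of mm9 in the same order. The whole number of fragments at each summit and its local background were solved from the fold (with a pseudocount of 1) and the −log10 p to within 0.001, which succeeded for 100% of peaks, with several solutions in 55 WT and 1 Tet2 KO peaks, and was tested on simulated data. Motifs were sought on both strands in the 200 bp around the centre, MEF2 and CTCF as degenerate cores. All exons were sampled as 200 bp at the middle of each exon outside promoters. Repeated 31-base words were counted on both strands of mm9. The members and lists were chosen with earlier results of these data known. Genes were named by rule: the 10 strongest exonic peaks of each list, the 5 genes with most, all Tet2 KO peaks without a WT peak, up to 4 per fixed list by fold and up to 4 in both lists, and the peaks at the edge of the promoter window, and sequences by highest fold per class and motif. Beyond 4 in a list, names were added after their values were seen. Scripts ran in Python 3.11.15 (pandas 2.3.3, numpy 2.4.6, matplotlib 3.10.9, scipy 1.17.1).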

Additional observations from a re-analysis of the deposited data

How the results depend on the processing

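No paired analysis was possible because WT and Tet2 KO have 1 list each, with no replicate number in it, and for the same reason no replicate could be left out. Of 132 alternatives to the main values 77 stayed within the 95% interval of a share or within 1.5 times a count, and 55 moved. These leave out the shares of motifs other than CAGCTG and AP-1. For those, 15 more alternatives stayed and 27 moved, which makes 174 alternatives in all. The direction from WT to Tet2 KO was kept in each count. Causes were not tested beyond the construction of each alternative.

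With the summit in place of the centre, peaks with at least 50% of bases exonic, or autosomes and X only, nothing moved. Promoter windows of 1000 bp on either side left 52 Tet2 KO exonic peaks, shares of 2.37% of WT and 1.36% of Tet2 KO peaks, and 7.53% of WT exonic peaks with a Tet2 KO peak. Windows of 3000 bp gave 475 and 43 peaks, 1.84% and 1.12%. Protein-coding transcripts alone gave 3.02% of WT peaks. Coding sequence and UTRs alone gave 2.63% and 1.90%.

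At a −log10 q of 5 the Tet2 KO count was 53, the ratio 14.7 and the share of WT exonic peaks with a Tet2 KO peak 6.27% (coding exon 6.18%, 5′ UTR 6.73%, noncoding exon 6.55%). At a −log10 q of 10 the counts were 412 and 12, the ratio 34.3, the exonic share of WT peaks 2.93%, and the share with a Tet2 KO peak 2.67% (coding exon 3.91%, 5′ UTR 0% with an upper limit of 6.64%, 3′ UTR 2.99%, noncoding exon 2.08%). Densities per Mb then fell to 3.98 in coding exons, 26.4 in 5′ UTRs, 5.27 in 3′ UTRs, 6.28 in noncoding exons, 5.35 in introns and 3.06 between genes in WT, and in Tet2 KO to 0.155, 0.489, 0.157, 0.131, 0.132 and 0.0844, where the class order of the full list was lost. A fold of at least 5 gave 7.25% with a Tet2 KO peak (noncoding exon 5.71%). With as many WT as Tet2 KO peaks, 105 were exonic, 2.74% of that list, the ratio was 1.13, and the shares with a peak in the other list were 37.1% of WT and 37.6% of Tet2 KO exonic peaks. An overlap of 50% of each peak gave 6.94% and 65.6%.

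In windows of 100 bp the E-box CAGCTG was in 32.1% of exonic and 26.02% of distal WT peaks and AP-1 in 16.7% and 26.7%. In windows of 400 bp these were 57.3% and 50.5%, and 29.1% and 44.8%, so their order was kept. Leaving out repeated sequence, chosen after seeing the data, moved none of the 7 values it was run on. Background over the genome was 2.13 times as high for Tet2 KO as for WT, and its part in these values was not tested.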
